A study of Mus musculus with 6 samples.

Results

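Reg3b, Reg3g, Saa3 and Saa1 were followed in colon tissue of mice exposed long-term to PFOA (perfluorooctanoic acid, a fluorinated surfactant that persists in the body), and in colon tissue of control mice. They are the rows of the deposited count table that carry these gene names, 4 of its 2033 rows. Each group has 3 RNA-seq libraries made from colon, and the labels name the treatments PFOA and control, without a dose, a duration, a strain, an age, a sex or a colon segment. Per the labels' protocols, frozen colon came from 6 mice per group. They do not say which mice entered which library, so p-values measure the spread between libraries, which may be partly technical. Because no colon segment is labelled, a difference in position along the colon and an effect of PFOA cannot be told apart.

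Reg3b and Reg3g encode secreted C-type lectins of the gut epithelium that bind bacterial surfaces, and Reg3g is known for killing Gram-positive bacteria and for keeping bacteria away from the epithelial surface. In the mouse gut both are induced by microbial signals, through MyD88-dependent sensing and the interleukin-22 and STAT3 pathway. Saa1 and Saa3 encode serum amyloid A proteins, lipid-binding acute-phase proteins that also bind retinol. Saa1 is made by the liver during acute inflammation and by the intestinal epithelium, and Saa3 is made mainly outside the liver, by epithelium, macrophages and adipocytes.

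The table holds only rows whose groups already differ. The mean raw count was higher in PFOA for 1035 of them and lower for 998, and the log2 ratios leave a gap from -1.08 to 0.92. All 1608 rows with enough counts for edgeR's quasi-likelihood test passed it at an adjusted p under 0.05 (100%), 50.0% in the higher and 50.0% in the lower direction for PFOA. All 4 genes were tested, and 3 were higher and 1 lower. Their calls alone therefore say nothing about them. The listed counts, which are not sequencing depths, ranged from 1771120 to 2269892 per library. Levels below are CPM values, that is, counts scaled to a common total of tested counts with edgeR's TMM factors. TMM takes most rows as unchanged, which does not hold in a table of rows that differ. The scale between libraries is therefore uncertain. The libraries also differ in markers of position along the gut: Hoxb13, a gene of posterior body identity, had 0, 6 and 3 counts in PFOA and 9884, 5730 and 7988 counts in control.

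The promoters are shown because the Reg3 genes moved together and the Saa genes moved apart. The lines give the 250 bases before the RefSeq transcription start of each gene, 5′ to 3′ on the strand of the gene, in build GRCm38.p6. They lie at chr6:78370635-78370884 (plus strand) for Reg3b, chr6:78468875-78469124 (minus strand) for Reg3g, chr7:46715677-46715926 (minus strand) for Saa3 and chr7:46742981-46743230 (minus strand) for Saa1. Capitals mark matches on either strand to a STAT motif (TTCNNNGAA), a C/EBP motif (TTGCNNAA), a TATA box (TATAAA) or an NF-kappa-B motif. No matches overlap in these windows. The RefSeq start used for Reg3b lies downstream of the listed start of its row (78370657), so most of its window lies inside that row. The Saa3 window lies wholly inside the listed Saa3 row (46711998 to 46716189).
Reg3b: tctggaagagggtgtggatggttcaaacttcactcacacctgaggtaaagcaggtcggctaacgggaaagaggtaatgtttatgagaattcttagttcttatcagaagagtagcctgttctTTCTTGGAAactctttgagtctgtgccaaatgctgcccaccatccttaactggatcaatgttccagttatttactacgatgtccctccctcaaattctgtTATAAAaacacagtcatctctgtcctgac
Reg3g: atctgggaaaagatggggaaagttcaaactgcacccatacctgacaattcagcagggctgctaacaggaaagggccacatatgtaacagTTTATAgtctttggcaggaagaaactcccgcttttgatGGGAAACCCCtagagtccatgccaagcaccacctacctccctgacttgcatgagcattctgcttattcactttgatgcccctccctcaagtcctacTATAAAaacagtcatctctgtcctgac
Saa3: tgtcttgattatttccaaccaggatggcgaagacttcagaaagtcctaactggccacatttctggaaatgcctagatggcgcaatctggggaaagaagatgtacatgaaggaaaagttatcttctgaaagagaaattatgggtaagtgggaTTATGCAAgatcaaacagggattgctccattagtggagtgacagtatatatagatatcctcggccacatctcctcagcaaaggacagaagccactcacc
Saa1: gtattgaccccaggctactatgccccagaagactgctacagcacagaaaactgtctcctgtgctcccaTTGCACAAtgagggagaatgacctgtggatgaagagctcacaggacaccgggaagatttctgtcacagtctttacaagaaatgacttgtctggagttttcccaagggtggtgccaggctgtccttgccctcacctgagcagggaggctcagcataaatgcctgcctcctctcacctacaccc

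Identity was counted over all alignment positions, gaps included, and was 94.8% for the Saa1 and Saa2 promoters. The Reg3b and Reg3g promoters were identical at 68.4% of positions, against 45.1% for Reg3b with Reg3a and 48.9% for Saa3 with Saa1. Their longest shared run covered the last 20 bases before the start of both genes (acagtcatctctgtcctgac), just downstream of a TATA box that begins 29 bases before the start in Reg3b and 27 bases before it in Reg3g. The capitals at 129 to 121 bases before the Reg3b start are its STAT match (TTCTTGGAA in the plus direction of the gene), and those at 123 to 114 bases before the Reg3g start are its NF-kappa-B match. Reg3g also holds the TATA letters on the other strand at 161 to 156 bases before its start. Saa3 and Saa1 each hold 1 C/EBP match, at 99 to 92 and at 182 to 175 bases before the start. Of 32851 RefSeq mouse promoters of the same length, 7.02% hold the STAT letters, 9.56% the C/EBP letters, 12.4% the TATA letters and 7.25% the NF-kappa-B motif. These matches describe letters in a window and show no binding.

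Both Reg3 lectin genes were near the detection limit in control colon and abundant in PFOA colon. Reg3b (chromosome 6, 78370657 to 78373466, mm10, as the table lists it) had 14969, 3962 and 1941 counts in PFOA replicates 1, 2 and 3 and 61, 5 and 0 counts in control replicates 1, 2 and 3. In CPM that was 8023, 1865 and 906 in PFOA and 29.7, 2.42 and 0 in control. The groups did not overlap, as in 98.0% of the tested rows (48.3% higher and 49.7% lower in PFOA), and the lowest PFOA library stood 30.4-fold above the highest control library. From summed counts Reg3b was 326-fold higher in PFOA, and the fitted log2 fold change was 8.39 with an SE of 1.61 (edgeR adjusted p = 0.00212). The groups' means were 3598 ± 3862 CPM in PFOA and 10.7 ± 16.5 CPM in control (SD, n = 3 each). It ranked 5th by fold change of the 804 rows called higher, whose median log2 fold change was 1.71. The large standard error goes with an 8.86-fold range between PFOA libraries and with control counts that fell mostly in 1 library.

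Reg3g lies 92.8 kb from Reg3b on the other strand of chromosome 6 (78466269 to 78468872). It had 3538, 876 and 854 counts in PFOA and 22, 11 and 2 counts in control, which is 1896, 412 and 398 CPM in PFOA and 10.7, 5.32 and 0.907 CPM in control. The groups did not overlap, with 37.1-fold between the lowest PFOA and the highest control library. Reg3g was 155-fold higher in PFOA, a log2 fold change of 7.32 with an SE of 1.02 (edgeR adjusted p = 6.54e-04), and ranked 13th among the rows called higher. In both groups replicate 1 held the highest level of Reg3b and of Reg3g.

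Single libraries set the size of these folds. With PFOA replicate 1 left out, the log2 fold change of Reg3b was 6.99 and that of Reg3g 6.13. Leaving out control replicate 1 gave 11.35 for Reg3b and 8.02 for Reg3g, and leaving out control replicate 3 gave 7.68 for Reg3b and 6.67 for Reg3g. With limma-voom it was 9.88 for Reg3b. Both genes kept their edgeR call without any 1 library, at adjusted p between 1.93e-04 and 0.00841. With all libraries 100% of the tested rows were called, so kept calls say little about them.

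The serum amyloid A genes went opposite ways. Saa3 (chromosome 7, 46711998 to 46716189) had 963, 191 and 201 counts in PFOA and 17, 9 and 7 counts in control, or 516, 89.9 and 93.8 CPM in PFOA and 8.29, 4.36 and 3.17 CPM in control. Every PFOA library was at least 10.8-fold above the highest control library, and PFOA replicate 1 stood above the other PFOA libraries. Saa3 was 42.3-fold higher in PFOA by a log2 fold change of 5.46 with an SE of 0.88 (edgeR adjusted p = 0.00111), or by 4.08 on the log2 scale without PFOA replicate 1. It ranked 34th among the 804 rows called higher.

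Saa1, whose row starts 24.8 kb beyond the annotated end of Saa3 (chromosome 7, 46740497 to 46742980), had 4860, 4261 and 3758 counts in PFOA and 9348, 13065 and 14228 counts in control. In CPM it stood at 2605, 2006 and 1753 in PFOA and at 4557, 6322 and 6451 in control. The groups did not overlap, and the lowest control library was 1.75-fold above the highest PFOA library. Saa1 was 2.76-fold lower in PFOA at a log2 fold change of -1.45 with an SE of 0.26 (edgeR adjusted p = 0.00172), a drop smaller than the median of -1.80 over the 804 rows called lower, among which it ranked 544th. Its libraries were close together, with a 1.49-fold range in PFOA and a 1.42-fold range in control. In bulk tissue, fewer cells of a type and less RNA per cell cannot be told apart for any of these genes.

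**Figure D1:**
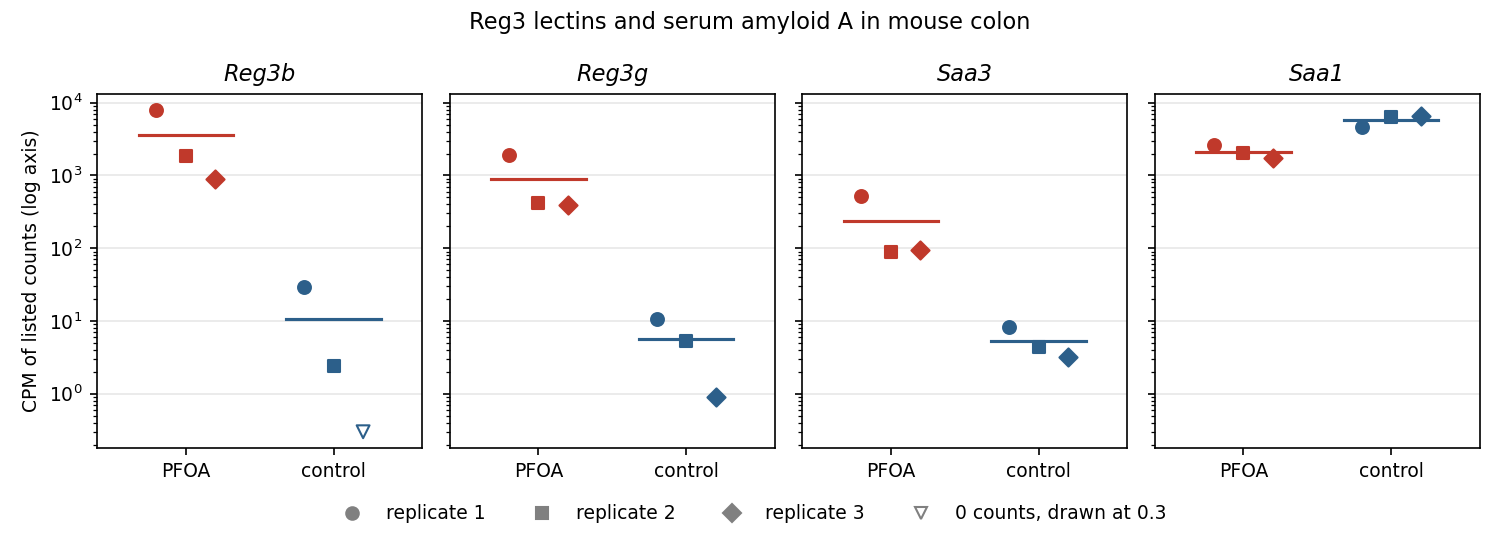
Level of each gene in every library, in CPM of listed counts on a log axis, PFOA left and control right; marker shapes give the replicate number, horizontal lines the group means, and the open triangle a library with 0 counts drawn at 0.3. Reg3b, Reg3g and Saa3 lie far higher in PFOA with replicate 1 on top, and Saa1 lies lower in PFOA.

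How far these reads could belong to near-identical copies was read from GENCODE M21 transcripts. Of the 734 windows of 50 bases in the Reg3b transcript and the 722 in the Reg3g transcript, 0 occurred in a transcript of another gene. Their coding sequences, of 525 and 522 bases, were 76.0% identical. Saa3 shared 9 of 506 windows (1.78%), all with Saa1. Saa1 shared 83 of 560 windows (14.8%), with Saa2 and Saa3, and its coding sequence was 95.1% identical to that of Saa2. The count of Saa1 may therefore hold some Saa2 reads. Saa2, Saa4, Reg2, Reg3d and Reg4 have no row, so nothing can be said of their change. The Saa3 row merges annotated with assembled transcripts and runs 489 bases past the annotated gene, so its count covers more than the annotated gene.

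Of the other Reg genes of the cluster, 4 of which lie between Reg3b and Reg3g, Reg3a and Reg1 have rows, both too low to be tested. Reg3a, a further Reg3 lectin gene, had 11, 4 and 3 counts in PFOA and 0 in every control library. With 3 counts taken as the floor of the control group, its fold of PFOA over control came to 6.19. Reg1, a Reg gene best known from the pancreas, had 1, 2 and 4 counts in PFOA and 0 in every control library. With the same floor its fold came to 2.41. PFOA replicate 1 was the highest PFOA library for Reg3a and the lowest for Reg1. Both folds take the PFOA counts as exact, so they are no lower limits. Variation between libraries is not covered either.

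Ratios between genes within a library do not depend on the scaling between libraries, and 3 were compared. The count ratio of Saa3 to Reg3g was 0.272, 0.218 and 0.235 in PFOA and 0.773, 0.818 and 3.5 in control. It was thus nearly the same in all PFOA libraries, although Saa3 itself ranged 5.74-fold and Reg3g 4.76-fold there. On the log2 scale, with 0.5 added to each count, it averaged -2.05 ± 0.16 in PFOA and 0.32 ± 1.10 in control (SD, n = 3 each), a difference of -2.37 (two-sided exact permutation p = 0.1, the smallest that 3 against 3 libraries allow; 0.15 adjusted over the 3 ratios). Reg3g thus made up more of the pair in every PFOA library than in any control library. That goes with the larger fold of Reg3g (155-fold, against 42.3-fold for Saa3). The control ratios rest on 2 to 22 counts, and that of 3.5 on 7 against 2 counts.

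The ratio of Reg3b to Reg3g was 4.23, 4.52 and 2.27 in PFOA and 2.77, 0.455 and 0 in control, so the groups overlapped. The log2 ratio averaged 1.81 ± 0.55 in PFOA and -0.65 ± 1.92 in control (SD, n = 3 each), a difference of 2.46 (two-sided exact permutation p = 0.2; 0.2 adjusted over the 3 ratios). That difference was 3.51 without control replicate 1 and 1.62 without control replicate 3, and the control ratios rest on 0 to 61 counts.

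Of the 3 ratios compared, that of Saa3 to Saa1 differed most between the groups. Saa3 was higher and Saa1 lower in PFOA without overlap, so a separation of their ratio was given beforehand. The ratio and its p restate the 2 fold changes and add no further result. Saa3 had 19.8%, 4.48% and 5.35% of the counts of Saa1 in PFOA and 0.182%, 0.0689% and 0.0492% in control. The log2 ratio averaged -3.68 ± 1.17 in PFOA and -10.13 ± 0.95 in control (SD, n = 3 each), a difference of 6.45 (two-sided exact permutation p = 0.1, the smallest possible; 0.15 adjusted over the 3 ratios). It was 5.78 without PFOA replicate 1. Saa1 kept the larger count of the pair in every library.

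**Figure D2:**
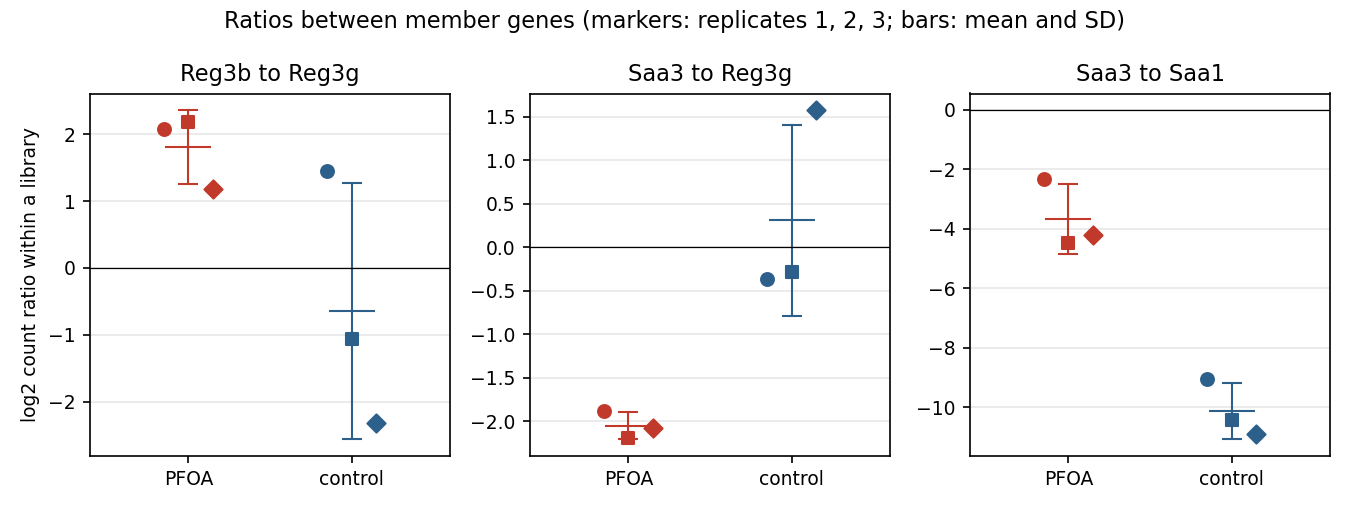
Log2 count ratio within each library for Reg3b to Reg3g, Saa3 to Reg3g and Saa3 to Saa1, with 0.5 added to each count, PFOA left and control right; markers are replicates 1 to 3, horizontal ticks the means and bars the SD. The groups overlap for Reg3b to Reg3g and do not overlap for the other pairs.

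The count ratios above do not allow for row length, so levels between genes were also compared per length. By the lengths that the table lists (1142 bases for Reg3b, 2114 for Reg3g, 3095 for Saa3 and 2478 for Saa1), Reg3b reached 7026, 1633 and 793 CPM per kb in PFOA. Saa1 stood at 1051, 809 and 708 CPM per kb in the same libraries, and Reg3g and Saa3 below it at 188 to 897 and 29.0 to 167 CPM per kb. In control, Saa1 had 1839 to 2603 CPM per kb and no other gene of the 4 more than 26.0. The order of Reg3b and Saa1 in PFOA depends on the length used. With the annotated coding transcripts (783 bases for Reg3b and 609 for Saa1) Saa1 was above Reg3b in PFOA replicates 2 and 3, at 3294 and 2879 against 2382 and 1157 CPM per kb. PFOA replicate 1 had Reg3b above Saa1 by either length.

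PFOA replicate 1 stood above the other PFOA libraries for Reg3b, Saa3 and Reg3g alike. Its level was 5.79-fold the mean of the other PFOA libraries for Reg3b, 5.62-fold for Saa3 and 4.68-fold for Reg3g. Over the 804 rows called higher in PFOA the median of this measure was 0.13 on the log2 scale, against 2.53, 2.48 and 2.22 for the 3 genes. It was at least 3-fold in 51 rows (6.34%), among which the 3 genes ranked 13th, 14th and 18th. For Saa1 it was 1.39-fold. Rows above them, named after their values were seen, include Sprr1a (an epithelial cornified envelope gene) at 27.7-fold, S100g (a calcium-binding protein of absorptive cells) at 17.6-fold, Iigp1 (an interferon-inducible GTPase) at 15.3-fold and Cxcl9 (an interferon-gamma-induced chemokine) at 6.09-fold. Apob, the structural protein of chylomicrons, followed at 5.24-fold. Relative to the control mean, Reg3b was 748-fold, 174-fold and 84.5-fold, Reg3g 336-fold, 73.0-fold and 70.5-fold, and Saa3 97.9-fold, 17.1-fold and 17.8-fold in PFOA replicates 1, 2 and 3.

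**Figure D3:**
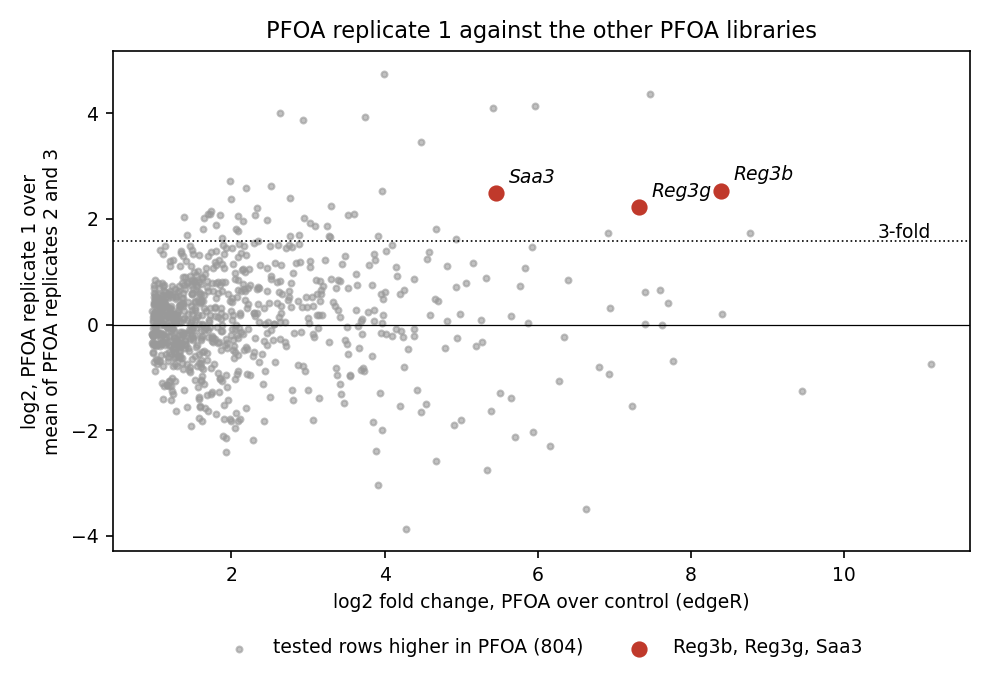
Each point is 1 of the 804 tested rows called higher in PFOA; the x axis gives the edgeR log2 fold change of PFOA over control and the y axis the log2 level in PFOA replicate 1 over the mean of PFOA replicates 2 and 3. Reg3b, Reg3g and Saa3 (red) lie above the dotted line at 3-fold, as do 51 rows in all.

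Rows with the most alike profiles were sought among 994 other tested rows with a descriptive symbol and a mean of at least 1 CPM, by the root-mean-square difference of centred log2 CPM over the 6 libraries. In rows selected for a group difference, alike profiles are common, and they show no shared function or control. The row nearest to Reg3g was Abca12, a lipid transporter gene, at 0.44 log2 units. Prap1 (0.79), the bile acid transporter subunit Slc51a (0.87), Cyp2c66 (0.90) and Cyp2c65 (0.92) came next. Abca12 had 9901, 3584 and 3238 counts in PFOA and 66, 72 and 7 counts in control, so that it shares with Reg3g the excess in PFOA replicate 1 and the low count in control replicate 3.

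For Reg3b the nearest rows were Apol10c-ps (1.20), Reg3g (1.29), Slc51a (1.38), Abca12 (1.40) and Prap1 (1.94). For Saa3 they were Acaa1b, a peroxisomal thiolase gene (0.46), Ms4a18 (0.57), Mal (0.75), Cyp2c65 (0.79) and the carbonic anhydrase gene Car12 (0.83). Acaa1b had 1112, 474 and 509 counts in PFOA and 45, 32 and 15 counts in control. The 2 Reg3 genes were thus not each other's nearest rows: Reg3b ranked 13th for Reg3g, and Reg3g ranked 2nd for Reg3b. Saa1 was nearest to Sytl5 (0.13), C5ar2 (0.14), Rasd2 (0.15), Gls2 (0.15) and Akr1b3 (0.15), and Saa3 ranked 965th of the 994 rows for it.

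**Figure D4:**
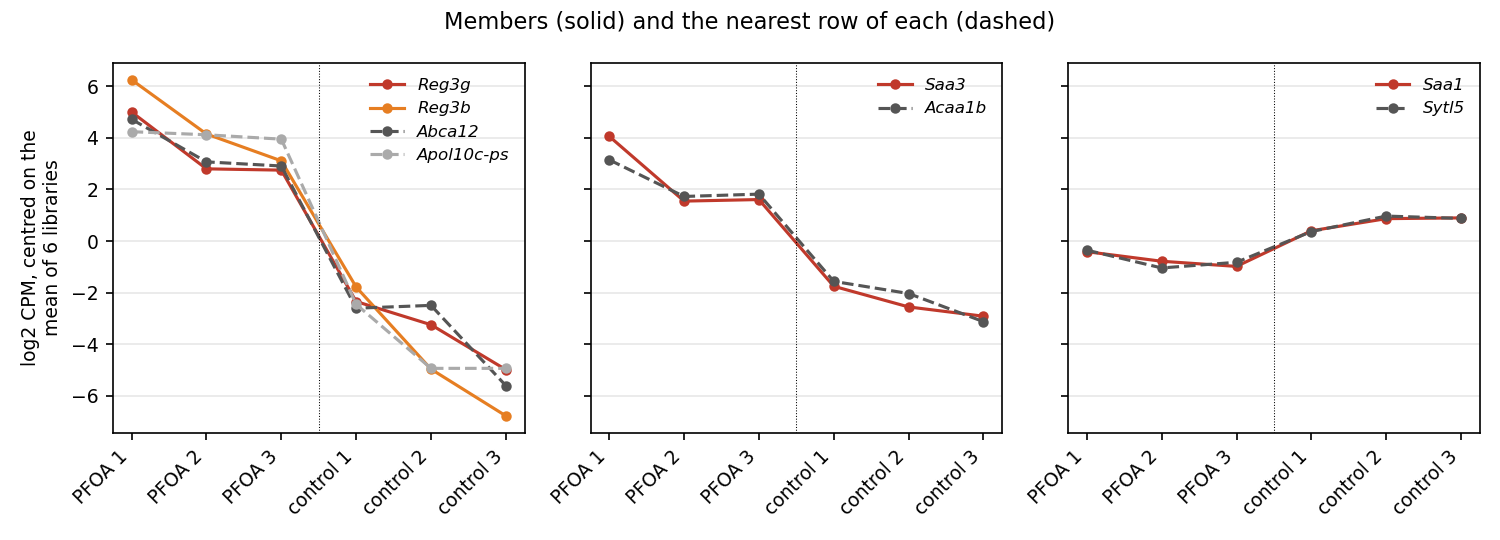
Log2 CPM of each gene in the 6 libraries, centred on its own mean, with the 4 genes as solid and the nearest row of each as dashed lines; PFOA libraries stand left and control libraries right, and lines only join the points of 1 gene. Abca12 follows Reg3g and Acaa1b follows Saa3 through all libraries, while Saa1 and Sytl5 run the other way.

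Genes of the pathways around these proteins have few rows. Of 20 cytokines that induce or accompany Reg3 and Saa expression, Il18 alone has a row. It encodes an epithelial cytokine and had 159, 128 and 110 counts in PFOA and 419, 641 and 786 counts in control, 4.51-fold lower in PFOA, a log2 fold change of -2.15 with an SE of 0.31 (edgeR adjusted p = 7.76e-04). Of 27 genes of cytokine receptors and STAT3 signalling, 0 have a row. Of 31 genes of microbial sensing, Tlr2 has one. This receptor for bacterial lipoproteins had 1052, 1070 and 993 counts in PFOA and 319, 267 and 302 counts in control, 3.62-fold higher in PFOA, with PFOA libraries close together. The absence of a gene from the table carries no information on its change.

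Of 42 other epithelial antimicrobial or interleukin-22 target genes, 11 have rows, which make 10 rows because Gsdmc2 and Gsdmc4 are merged with Gsdmc3. Of the 9 rows tested, 6 rose and 3 fell, with a median log2 fold change of 2.08. Of all tested rows, 50.0% were higher. Dmbt1, a mucosal scavenger protein that binds bacteria, had 288705, 158813 and 161681 counts in PFOA and 58039, 36744 and 49126 in control, 4.36-fold higher. Nos2, the inducible nitric oxide synthase, had 801, 472 and 361 counts in PFOA and 166, 58 and 107 in control, 5.09-fold higher. Both were highest in PFOA replicate 1, as were Ido1, a tryptophan-degrading enzyme (380, 242 and 192 counts in PFOA, against 141, 23 and 23 in control), and Sprr1a (919, 29 and 47 counts in PFOA, against 13, 40 and 16 in control).

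Those that fell were Wfdc2, a secreted protease inhibitor, Muc1, a membrane mucin, and Zg16, a goblet cell lectin that binds Gram-positive bacteria. Wfdc2 had 4, 63 and 53 counts in PFOA and 3040, 1844 and 2121 counts in control, 56.6-fold lower in PFOA. Zg16 had 16492, 17900 and 19515 counts in PFOA and 40771, 53192 and 52047 in control, 2.63-fold lower. Muc1 was 8.34-fold lower. PFOA replicate 1 was the lowest library for Wfdc2, the reverse of its place for the Reg3 lectins. Calls of Sprr1a, Duox2, Ido1 and the merged Gsdmc row ended in some alternatives: without PFOA replicate 1 the edgeR adjusted p was 0.262, 0.119, 0.0585 and 0.0691, at log2 fold changes of 0.66, 0.48, 1.73 and 1.48. Sprr1a, Duox2 and the Gsdmc row also overlapped between the groups.

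Acute-phase partners of Saa in the liver response had 2 rows of 25 genes. Hamp2, a hepcidin gene, had 0, 5 and 1 counts in PFOA and 57, 23 and 37 counts in control and fell in PFOA, at a log2 fold change of -4.17 with an SE of 0.76 (edgeR adjusted p = 0.00176). Hp, the haemoglobin-binding protein haptoglobin, had 12, 3 and 34 counts in PFOA and 2, 3 and 2 in control, too few for a test. Of 23 genes for receptors and partners of Saa and Reg3, 3 have rows. The retinol-binding protein gene Rbp2 was 4.74-fold lower and the retinal dehydrogenase gene Aldh1a1 4.52-fold higher in PFOA, and the formyl peptide receptor gene Fpr1, at 38, 8 and 13 counts in PFOA and 2, 4 and 7 in control, was too low for a test.

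**Figure D5:**
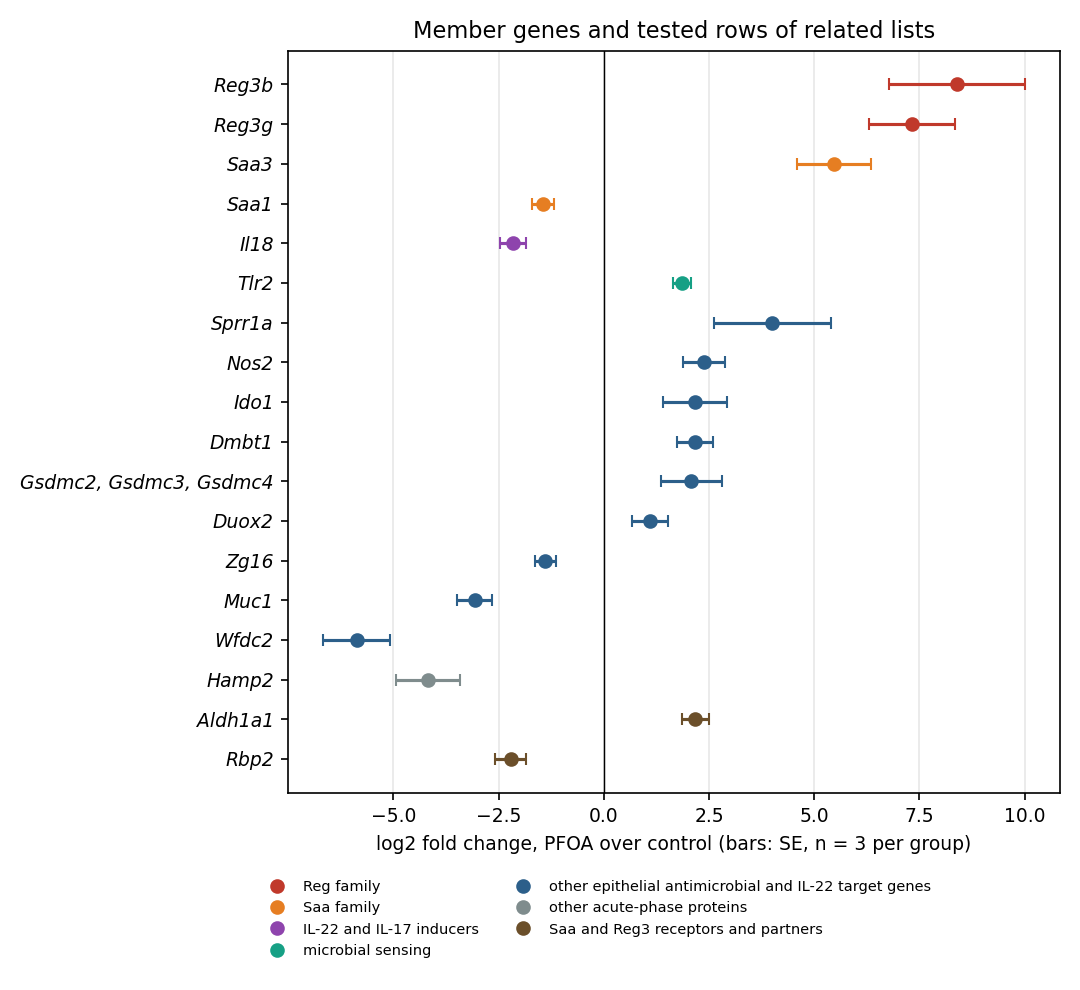
Log2 fold change of PFOA over control with its SE (n = 3 per group, edgeR) for the 4 genes and for each tested row of the related gene lists, coloured by list. Reg3b, Reg3g and Saa3 lie at 5.46 or more, above every row of the other lists drawn.

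The functional annotation deposited with the table, searched after the values were seen, gives the term acute-phase response to 6 rows. They are the 4 genes, Hp and the matrix protein gene Fn1, which was lower in PFOA (log2 fold change -1.60). Of the 5 tested, 3 were higher and 2 lower. The term for defence against Gram-positive bacteria is on 5 rows, Reg3b, Reg3g, Tlr2, Dmbt1 and Mmp7, and all 5 were higher, where 50.0% of all tested rows were. The term for defence against Gram-negative bacteria is on 9 rows, of which 7 of 8 tested were higher and Nlrp10 lower. Reg3b, Reg3g, Dmbt1 and Mmp7 carry both terms, and since the terms were searched with the values known and hold the Reg3 genes themselves, nothing is read from these counts.

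Other tissues and cells that make these proteins were checked by their markers. Of 22 genes of exocrine pancreas, a site of Reg expression, 5 have rows and all 3 tested were lower in PFOA. Their summed level was 8868 to 9571 CPM in PFOA and 28888 to 34509 CPM in control, mostly from Zg16 and Sycn, and Zg16 is also a goblet cell gene. Cela1, a pancreatic elastase gene, had 129, 132 and 118 counts in PFOA and 3239, 1946 and 2048 in control. The pancreatic enzyme genes Cpb1 and Pnliprp1 were low in both groups and not tested. Cpb1 had 0, 0 and 2 counts in PFOA and 5, 7 and 4 in control, and Pnliprp1 had 0 in each PFOA library and 25, 5 and 2 in control. Of 10 genes of liver, the source of Saa1 in acute inflammation, 3 have rows, of which 1 was higher and 2 were lower in PFOA. Alb (serum albumin) had 0, 0 and 1 counts in PFOA and 38, 46 and 20 in control, and Ttr (transthyretin) was 17.7-fold lower in PFOA. Apob, which the intestine also makes, was 6.42-fold higher, with 4464, 857 and 846 CPM in PFOA and 191, 398 and 320 CPM in control.

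Of 13 neutrophil markers, Ly6g alone has a row, at 56, 12 and 12 counts in PFOA and 1172, 1999 and 1737 in control. Adipocytes, a source of Saa3, had 5 rows of 12 markers, with sums of 602, 72.5 and 1033 CPM in PFOA and 56.6, 48.4 and 13.1 CPM in control. All 3 tested rows were higher in PFOA, as were 50.0% of all tested rows. Those of Cfd and Car3 overlapped between the groups, and their calls ended in some alternatives. With limma-voom their adjusted p was 0.289 and 0.204. In PFOA replicate 2, where Saa3 had 191 counts, Adipoq and Plin1 had 0 counts, Cfd 3 and Car3 7, while Cidec had 144 counts (67.8 CPM), above its 9.75, 23.7 and 8.16 CPM in control. The part of adipocytes in the level of Saa3 was not tested. PFOA replicate 3 had the highest adipocyte sum and replicate 1 the highest Saa3.

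Of 12 Paneth cell markers, which include Reg3-secreting cells of the small intestine, Mmp7 was higher at 34, 365 and 536 counts in PFOA and 3, 5 and 1 in control. Mptx2 was lower at 6, 66 and 92 counts in PFOA and 132, 3403 and 2040 in control. PFOA replicate 1 was the lowest PFOA library for both and the highest for the Reg3 genes. Of 14 markers of innate lymphoid and type 17 cells, which release interleukin-22, 3 have rows. Ncr1, Tbx21 and Trdc were higher in PFOA, at 43, 41 and 55, 48, 34 and 42, and 53, 24 and 17 counts in PFOA, against 21, 22 and 24, 15, 19 and 21, and 10, 3 and 3 counts in control. The part of these cells in the levels of the Reg3 and Saa genes was not tested.

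Beyond Hoxb13, other posterior genes were low in PFOA, among them Hoxd13 with 1, 0 and 0 counts in PFOA and 3297, 345 and 1935 counts in control. The summed level of 5 posterior identity rows was 24.1 to 50.4 CPM in PFOA and 3564 to 7193 CPM in control. Small intestinal enterocyte markers, with 5 rows of 17 genes, summed to 4777 to 6926 CPM in PFOA and 497 to 1377 CPM in control, with PFOA replicate 1 highest. Of these rows 4 were higher and 1, Rbp2, was lower in PFOA. Most of the sum came from Fabp2 (4979, 2238 and 2054 CPM in PFOA and 65.3, 423 and 142 CPM in control) and Slc10a2 (1342, 1951 and 1802 CPM in PFOA and 201, 659 and 545 CPM in control). Sis had 21.4, 112 and 182 CPM in PFOA and 1.95, 3.39 and 2.27 CPM in control, and so was lowest of the PFOA libraries in replicate 1. Of the colon epithelium markers, 5 of 17 genes have rows, which make 7 rows. Of these, 5 were higher in PFOA (Cdx2, Car1 and the rows of Muc2) and 2 lower (Car4 and Slc26a3). The Muc2 rows lost their call without control replicate 1, at edgeR adjusted p of 0.0617, 0.0828 and 0.073. The part of position in the levels of Reg3b, Reg3g, Saa3 and Saa1 was not tested.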

How the data were processed

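RNA-seq of mouse colon was analysed in 6 libraries, 3 from PFOA-exposed and 3 from control mice. The authors deposited 1 table of raw read counts per gene row with positions, lengths and annotation. Per the labels' protocols, library preparation used the SMARTER mRNA-Seq kit. Per the submitters' processing notes, HISAT2, HTSeq and mm10 are listed, with no role or order given. How loci were assembled, whether strand was used and how the 2033 rows were chosen is not given in the sources used here. Count columns were matched to samples by the labels' descriptions, and 0 columns of other samples were found. Every row names a gene or locus, so 0 rows were left out.

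The test was that of edgeR 4.0.16 in R 4.3.3, which kept 1608 rows by filterByExpr and used TMM, glmQLFit and glmQLFTest without covariates, two-sided, with Benjamini-Hochberg adjustment over tested rows. The standard error is the absolute log2 fold change divided by the square root of F. Plain folds are ratios of summed counts over TMM-scaled totals. Within-library ratios used an exact permutation test over libraries. Alternatives were DESeq2 1.42.0, limma-voom (limma 3.58.1), RLE size factors, library totals alone, no filter, the replicate number as a block and fits that each leave out 1 library. The procedure was tested on simulated data with 200 of 1608 rows changed and a common dispersion for all rows. It called 22% of the 2-fold and 90% of the 4-fold changes, and 2 unchanged rows. The deposited table is unlike this simulation, since all its tested rows differ. Replicates of a group correlated at 0.951 to 0.984 (log2 CPM). Sequences are from RefSeq (GRCm38.p6) and GENCODE M21, and identities are from Biopython 1.88 alignments, over their full length with gaps.

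The genes, lists, alternatives and the rule for named genes were chosen with earlier results of these data known. The rule names the 4 genes, up to 6 rows of each list by smallest p and the 5 nearest profiles of each gene. The design was written for a full table, and since the table holds rows that already differ, its p-values describe spread only. The macrophage marker list is not reported here.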

Additional observations from a re-analysis of the deposited data

How the results depend on the processing

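All 4 genes kept their direction and their call in all 48 alternatives. The main fit called 100% of the 1608 tested rows, and few of the alternatives for other named rows ended a call (below). Kept calls therefore say little about these genes in particular. The log2 fold change of Reg3b lay between 6.99 and 11.35, that of Reg3g between 6.13 and 8.02, that of Saa3 between 4.08 and 5.90 and that of Saa1 between -1.73 and -1.31, with each end of these ranges reached by leaving out 1 library. The largest adjusted p over the alternatives was 0.00841 for Reg3b, 0.00355 for Reg3g, 0.00645 for Saa3 and 0.0105 for Saa1. Library totals alone shifted the median row by -0.20 on the log2 scale, and gave 8.04, 7.01, 5.16 and -1.65. For 60 other rows of the lists and nearest profiles, the direction was kept in all of 718 values, and the call was lost in 33. These values do not cover Fn1, Nlrp10, S100g, Iigp1 and Cxcl9. The lost calls were those of Sprr1a, Duox2, Ido1, the merged Gsdmc row, the Muc2 rows, Cfd and Car3. The 3 ratios kept their direction with a pseudocount of 1 and without any 1 library. Over the leave-one-out fits the difference ranged from 1.62 to 3.51 for Reg3b to Reg3g, from -2.71 to -1.73 for Saa3 to Reg3g and from 5.78 to 6.98 for Saa3 to Saa1.

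Replicate numbers are shared between the groups, and whether they pair the libraries is not known. Same-numbered libraries deviated from their group means with correlations of 0.114, -0.031 and 0.102. For differently numbered libraries the correlations lay between -0.149 and 0.117, the highest for PFOA replicate 2 with control replicate 3. With 3 libraries per group, such values cannot decide on a pairing. With the replicate number as a block the log2 fold change was 9.08 for Reg3b, 7.28 for Reg3g, 5.12 for Saa3 and -1.45 for Saa1, all called, and 1579 rows were called in place of 1608. The mean difference of the ratios within pairs was 2.46, -2.37 and 6.45, with an exact p of 0.25, the smallest that 3 pairs allow.

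Control counts of Reg3b, Reg3g and Saa3 were between 0 and 61 per library, which limits the precision of their folds, and total depth is unknown.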
